A study of Gallus gallus with 3 samples.

Results

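Chromatin modifiers and remodellers are the proteins that write, erase and read chemical marks on histones and DNA, and the motors that move or rebuild nucleosomes. They were taken here by gene name. The names were those of lysine methyltransferases, demethylases and acetyltransferases called KMT, SETD, EZH, KDM or KAT, and the Polycomb partners EED and SUZ12. Histone deacetylases (HDAC), sirtuins (SIRT), DNA methyltransferases (DNMT) and TET enzymes were also taken. So were genes named SMARC or ARID, only some of which are SWI/SNF subunits, the CHD remodellers, and the BRD, CBX, PHF and ING proteins. The names matched 116 of the 19309 genes with a value. These carried 115 different names. The families are not complete here, since only 56 of 68 core names looked up had a row. HDAC5, SIRT7, KDM6A, KDM6B, KMT2D, SETD1A, SETDB1, SMARCB1, CHD1, CBX5, CBX6 and PHF8 had none and were not measured under those names.

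Writers add acetyl or methyl groups to histone tails or methyl groups to DNA, erasers remove them, and readers such as bromodomains, chromodomains and PHD fingers bind the marked tail and bring in further complexes. Remodellers of the SWI/SNF, ISWI and CHD families use ATP to slide, evict or space nucleosomes. In rodents, histone marks at steroidogenic genes of granulosa cells, the somatic cells that surround the oocyte, are known to change around the gonadotropin surge.

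RNA was sequenced from granulosa cells of the chicken ovary at 3 follicle stages, with 1 library per stage. The first library came from follicles of 6 mm in diameter, which precede entry into the preovulatory hierarchy, and its hens were labelled as 10 to 15 months old. The second came from F5 follicles, an early member of the hierarchy, of hens labelled as 10 to 16 months old, and the third from F1 follicles, the largest and next to ovulate, of hens labelled as 10 to 17 months old. The labels give no treatment and no mutant, and the sources used here do not state how many hens or follicles were pooled for a library. Stage, hen and library therefore cannot be told apart, no difference between libraries was tested, and intervals cover counting error only.

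Read totals were 14923359 at 6 mm, 14137511 at F5 and 14086626 at F1. Values are FPKM, the reads of a gene divided by its length and by the library's reads, as the authors deposited them. The labelled cell type was checked against marker genes: all 13 granulosa markers looked up had reads in all 3 libraries, with summed levels of 2125, 7432 and 7196 FPKM at 6 mm, F5 and F1. The granulosa markers went both ways, since 6 were 2-fold higher and 3 lower in F5 against 6 mm, 3 higher and 5 lower in F1 against F5, and 7 higher and 4 lower in F1 against 6 mm. Summed markers of each other cell type were highest in the 6 mm library. The 12 theca and smooth muscle markers found summed to 709.5, 26.0 and 18.2 FPKM at 6 mm, F5 and F1, the 10 endothelial markers to 79.9, 18.9 and 6.48 FPKM, the 9 leukocyte markers to 48.3, 7.80 and 2.51 FPKM, the 8 oocyte and germ cell markers to 243, 48.2 and 2.07 FPKM, and the 6 surface epithelium and oviduct markers to 165, 28.0 and 6.09 FPKM. At 6 mm only CD4 among these markers was without reads. LUM, CYP19A1, PDGFRA, ESAM, FLI1, SPI1, CD4, KRT8 and KRT18 were without reads in both the F5 and the F1 library. The part of these cells in the differences from 6 mm was not tested, and in bulk RNA fewer cells of a type and less RNA per cell cannot be told apart.

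Most chromatin genes were expressed at all stages. Of the 116, 107 had at least 1 FPKM in every library and 112 in at least 1 library. HDAC9, ARID3C, CBX2 and PHF24 stayed under 1 FPKM throughout. The median level was 14.5, 13.9 and 9.22 FPKM at 6 mm, F5 and F1, while all genes with reads had medians of 5.35, 4.58 and 2.60 FPKM. At least 10 FPKM was reached by 73, 73 and 53 of the 116. Summed over the 116, the level was 2606, 2752 and 1898 FPKM, which was 0.50%, 0.460% and 0.292% of the FPKM of all genes. Under median-ratio scaling the sums were 2606, 2997 and 3172, lowest at 6 mm and highest at F1. As deposited, the F1 library held the lowest level of 92 of the 116, and the 6 mm library the highest level of 67. Among all genes with at least 1 FPKM in either library, 78.1% were lower in F1 than in F5, and 76.4% lower than in 6 mm. The share of all genes with their lowest level at F1 was not counted. Under median-ratio scaling some of the 92, such as HDAC1 and KDM1A, were highest at F1.

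By function, enzymes of DNA methylation and demethylation summed to 169, 255 and 82.8 FPKM at 6 mm, F5 and F1, and so made up 6.47%, 9.27% and 4.36% of the summed chromatin gene level. DNMT3B carried this: without it, an alternative chosen after seeing the data, the sums were 76.4, 93.0 and 67.6 FPKM, and the class was highest at F1 under median-ratio scaling. The SWI/SNF and ARID class summed to 476, 511 and 458 FPKM, and its share was 18.3%, 18.6% and 24.1%. Without SMARCA2, likewise tried after seeing the data, the sums were 358, 383 and 247 FPKM and the shares of the remaining genes 14.4%, 14.6% and 14.6%. Chromobox proteins summed to 174, 120 and 74.7 FPKM, the bromodomain proteins to 381, 467 and 298 FPKM, and the PHF and ING proteins to 319, 330.5 and 201 FPKM. As deposited every class was lowest at F1, while under median-ratio scaling only the chromobox class and the DNA methylation class with DNMT3B were.

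A gene was counted as changed where log2(FPKM + 1) differed by at least 1 (2-fold) between 2 libraries, over genes with at least 1 FPKM in either. This scale understates differences of low genes. In F5 against 6 mm, 1 chromatin gene of 112 was higher (SMARCC1) and 1 was lower (PHF21B), where 7.64% of all genes tested were higher and 10.8% lower. The median difference was -0.07 for chromatin genes and -0.13 for all genes. In F1 against F5, 2 of 111 were higher (KAT2B and HDAC7) and 16 were lower, where 5.09% of all genes were higher and 22.9% lower. The median difference was -0.61 for chromatin genes and -0.53 for all genes. Of the 111, 98 lay below 0, or 88.3%, against 78.1% of all genes. In F1 against 6 mm, 1 of 112 was higher (HDAC7) and 33 were lower, where 7.45% of all genes were higher and 32.8% lower. In each direction of each comparison the share of chromatin genes was below that of all genes, a difference that was not tested.

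**Figure D1:**
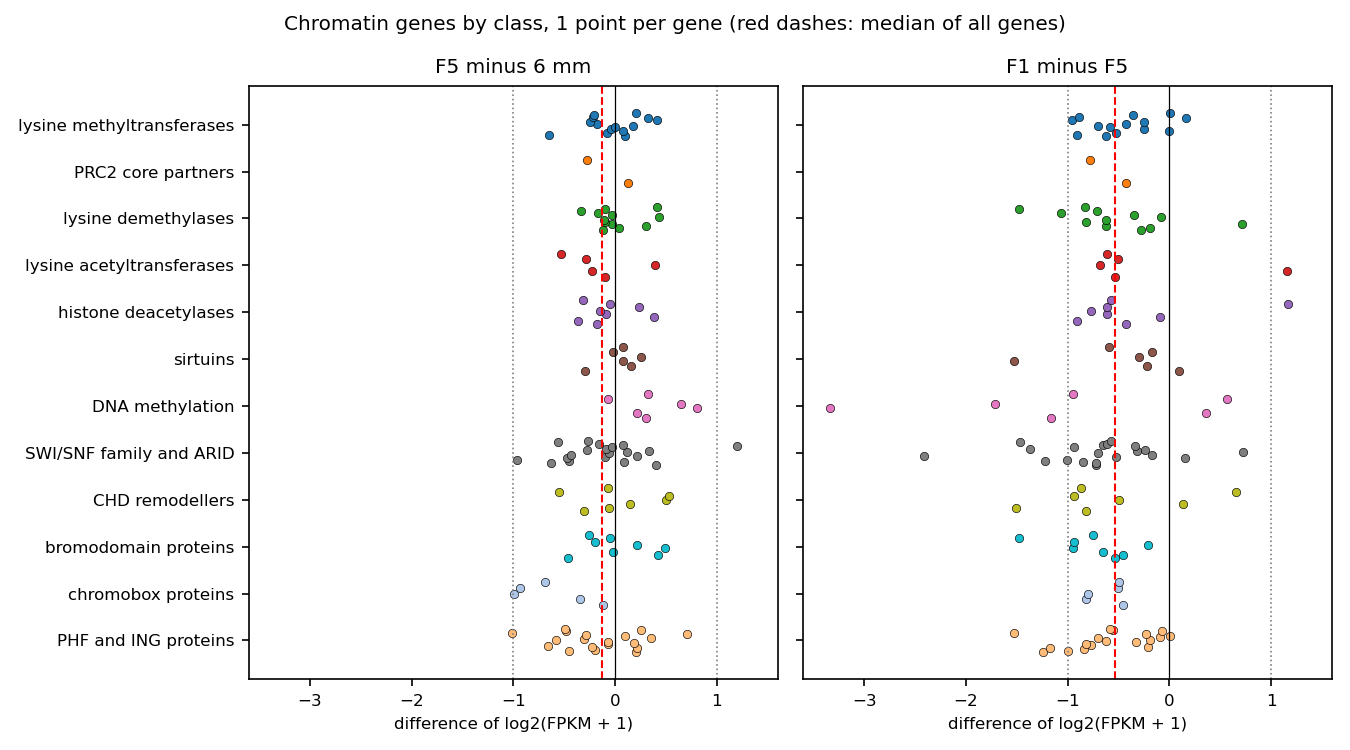
Difference of log2(FPKM + 1) for F5 minus 6 mm and for F1 minus F5, with 1 point per chromatin gene in rows by function, dotted lines at the 2-fold threshold and the median of all genes (-0.13 and -0.53) as a red dashed line. On the left panel SMARCC1 lies past the upper line and PHF21B past the lower, and on the right panel KAT2B and HDAC7 lie past the upper line and 16 genes past the lower, with DNMT3B furthest out at -3.33.

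The plot by function shows how the classes were placed against that median. In F1 against F5 the DNA methylation enzymes had the lowest class median, -1.05, with 3 of 6 past the threshold, and the sirtuins the highest, -0.26, with 1 of 6. The SWI/SNF and ARID class had a median of -0.68 with 5 of 20 lower. In this comparison 22.9% of all genes were 2-fold lower. In F5 against 6 mm the DNA methylation enzymes had the highest median, 0.31, and the chromobox proteins the lowest, -0.69.

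The scale of the F1 library decided how many genes were counted in each direction. As deposited, the median of all genes differed by -0.53 in F1 against F5. A median-ratio scaling moved it to 0.00, and then 6 chromatin genes were higher and 3 lower in F1 against F5, in place of 2 higher and 16 lower, while 10.9% of all genes were higher and 12.6% lower. In F1 against 6 mm the same scaling gave 10 higher and 8 lower, in place of 1 higher and 33 lower, while 15.6% of all genes were higher and 18.8% lower. Directions are therefore given as deposited. Some of those that held under all 5 scalings tried are named as such, and a direction without that remark may also have held. In F1 against F5, KAT2B and HDAC7 were at least 2-fold higher, and DNMT3B, TET1 and ARID5A at least 2-fold lower, under all 5. These were 1.80% and 2.70% of the 111, where 4.05% of all genes were 2-fold higher and 12.3% 2-fold lower under all 5. A direction without the 2-fold threshold held under all 5 for 11 higher and 61 lower of the 111, where 18.3% of all genes were higher and 49.8% lower throughout.

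**Figure D2:**
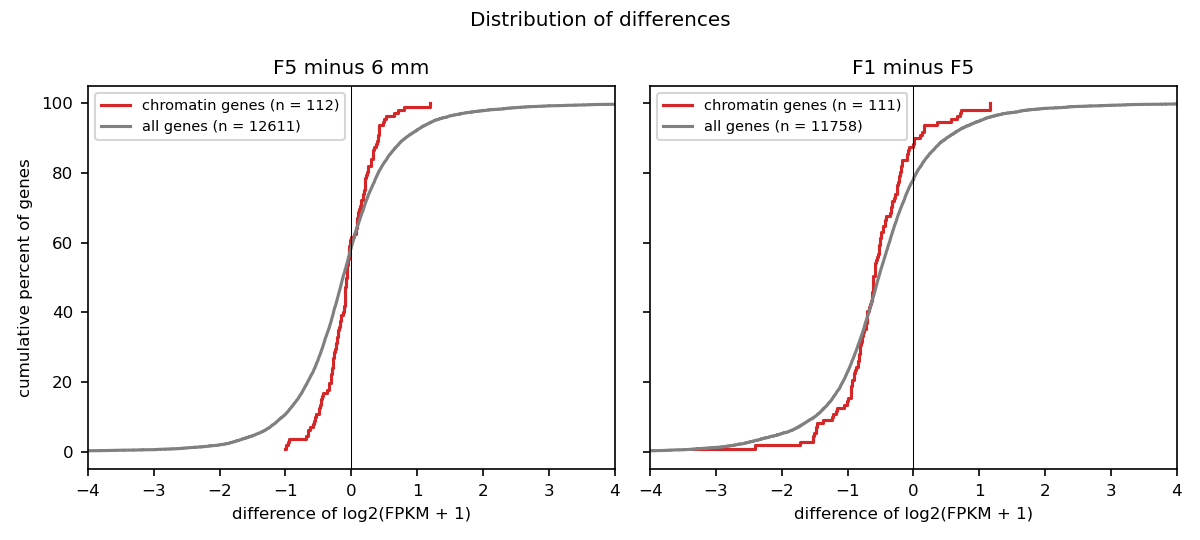
Cumulative percent of genes against the difference of log2(FPKM + 1) for F5 minus 6 mm and for F1 minus F5, for chromatin genes (112 and 111) and for all genes tested (12611 and 11758). The chromatin gene curve is steeper than that of all genes on the left panel, with medians of -0.07 and -0.13, and both curves are shifted below 0 on the right panel, with medians of -0.61 and -0.53.

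The distribution plot shows the same on a continuous scale. Among genes in the level range that holds the middle of the chromatin genes, a mean of 3.16 to 45.0 FPKM, none of the 92 chromatin genes reached 2-fold in F5 against 6 mm, while 6.61% of the 7744 genes tested in that range were higher and 7.93% lower. In F1 against F5, 15 of the 92 were lower, or 16.3%, while 23.8% of the genes in that range were lower. Over both steps, 92 of 112 chromatin genes, or 82.1%, stayed under 2-fold at each, against 63.3% of all genes. The commonest other pattern, a 2-fold lower level at the step to F1 with none at the step to F5, was met by 16 of 112, or 14.3%, against 15.2% of all genes. These 16 were KDM5A, KDM7A, SIRT3, DNMT1, DNMT3B, TET1, ARID3A, ARID3B, ARID5A, SMARCAD1, SMARCD3, CHD2, BRD8, ING1, ING4 and PHF21A.

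**Figure D3:**
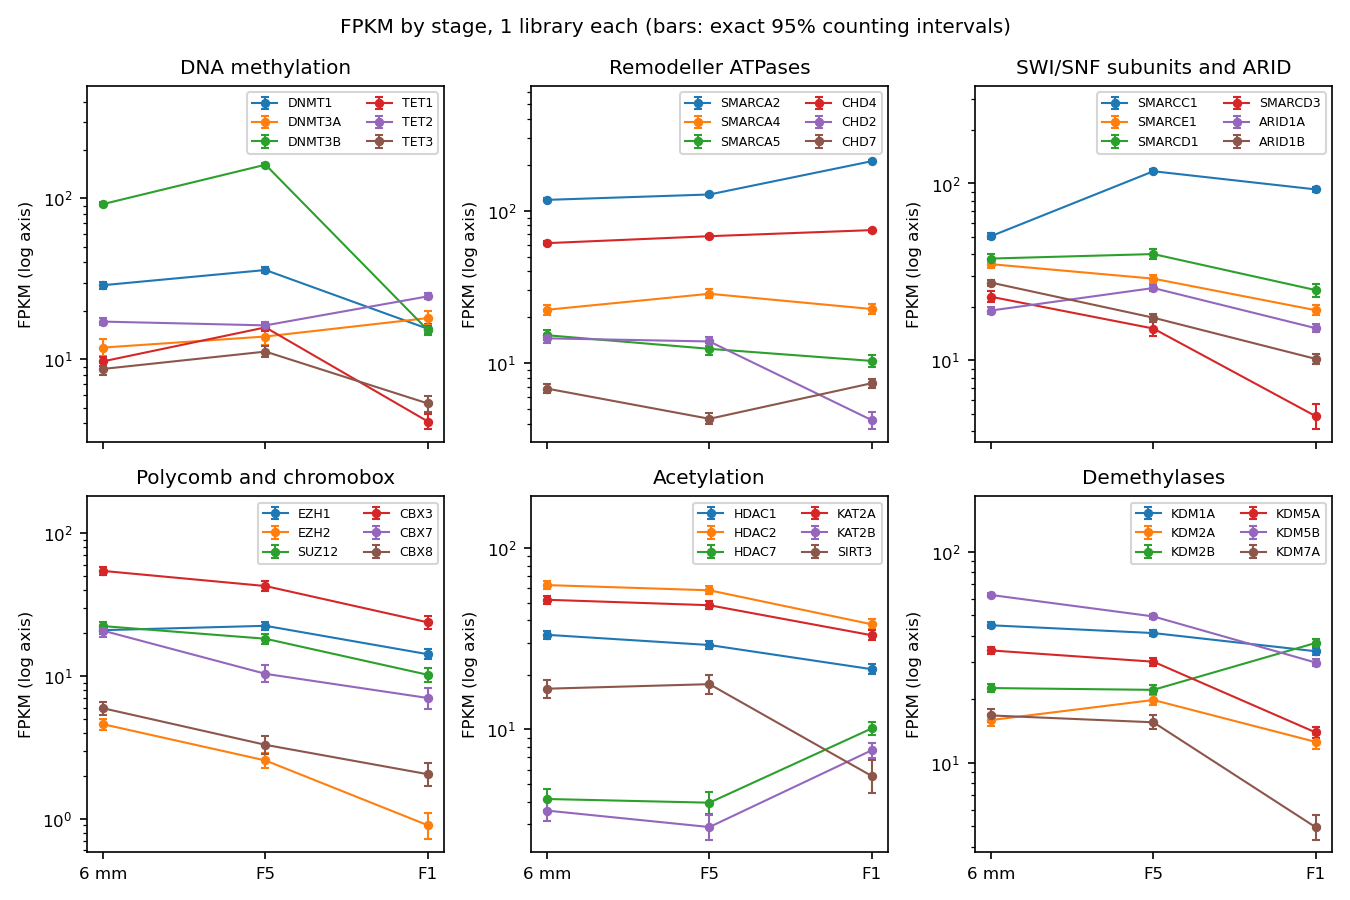
FPKM (log axis) in the 6 mm, F5 and F1 libraries of the chromatin genes the text follows most closely, with exact 95% counting intervals of the FPKM values. DNMT3B stands at 15.2 FPKM in F1, against 162 in F5, and SMARCA2 at 211 FPKM in F1, against 128 in F5.

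DNA methylation enzymes held the largest single difference. DNMT3B, a methyltransferase that places new methyl groups on DNA (chromosome 20, 10595952 to 10609143 in the coordinates of the files, whose genome build the sources used here do not name), had 92.3, 162 and 15.2 FPKM at 6 mm, F5 and F1, from 5807, 9663 and 902 reads. Only BRD2 stood above it at F5, and at F1 it lay near DNMT1 and DNMT3A. In F1 it was 10.7-fold lower than in F5 (95% counting interval 9.97 to 11.4), and in F5 it was 1.76-fold higher than in 6 mm (1.70 to 1.81). DNMT1, which copies methylation onto the new strand after replication, had 28.9, 35.9 and 15.5 FPKM and was 2.32-fold lower in F1 than in F5 (2.13 to 2.52). Its gene model starts at base 21 of an unplaced scaffold, so it may be partial. DNMT3A, the other enzyme of new methylation (chromosome 3, 104239248 to 104259227), had 11.8, 13.9 and 18.1 FPKM, and F1 was 1.30-fold higher than F5 (1.11 to 1.52), under the 2-fold threshold but higher under all 5 scalings.

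The TET dioxygenases, which oxidise methylated cytosine and start its removal, split in the same way. TET1 (chromosome 6, 10248739 to 10305381) had 9.72, 15.8 and 4.11 FPKM at 6 mm, F5 and F1, and was 3.84-fold lower in F1 than in F5 (3.43 to 4.32). TET3 had 8.72, 11.2 and 5.32 FPKM, which left it just under the threshold at a difference of -0.95. TET2 (chromosome 4, 38256307 to 38277565) had 17.2, 16.3 and 24.6 FPKM, and was 1.51-fold higher in F1 than in F5 (1.41 to 1.62). TET1, DNMT3B and DNMT1 were highest at F5 and lowest at F1 under all 5 scalings, as was TET3 except that its lowest level was at 6 mm under median-ratio scaling, whereas TET2 and DNMT3A were highest at F1 throughout.

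Beside these enzymes, UHRF1, the factor that guides DNMT1 to replicated DNA, had 15.0, 16.4 and 1.62 FPKM at 6 mm, F5 and F1, and was 10.1-fold lower in F1 than in F5 (7.89 to 13.1). Genes of cell division moved at the same step. In a proliferation list 33 of 35 were 2-fold lower in F1 than in F5, where 22.9% of all genes were. Their median difference was -2.73, and their summed levels were 1844, 1329 and 214 FPKM. The part of cell division in the levels of DNMT1, UHRF1 and the other chromatin genes that were lower at F1 was not tested.

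Among the genes named KMT, SETD or EZH, 0 of 14 reached 2-fold in F5 against 6 mm, where 7.64% of all genes were higher and 10.8% lower. In F1 against F5 0 did, where 5.09% of all genes were higher and 22.9% lower. In F1 against 6 mm, 2 of the 14 were 2-fold lower, where 32.8% of all genes were. EZH2, the main catalytic subunit of Polycomb repressive complex 2 that methylates lysine 27 of histone H3 (chromosome 2, 54361039 to 54396308), was 1 of these, with 4.59, 2.56 and 0.899 FPKM at 6 mm, F5 and F1. In F1 against F5 its difference of -0.91 was under the threshold on the scale with a pseudocount, while the FPKM ratio was 2.85-fold lower (2.23 to 3.66). It was 5.11-fold lower in F1 than in 6 mm, a call that held under all 5 scalings. Its less active paralog EZH1 had 20.9, 22.5 and 14.2 FPKM, and the shared partners EED and SUZ12 had 15.5, 17.0 and 12.4 FPKM and 22.4, 18.2 and 10.2 FPKM. SUZ12 passed the threshold in F1 against 6 mm with a difference of -1.06, but not under every scaling. SETD8, which places the first methyl group on lysine 20 of histone H4 and is tied to cell division, had 12.8, 10.8 and 5.40 FPKM. It was the other of the 14 past the threshold in F1 against 6 mm, at -1.11.

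The other KMT, SETD and EZH genes stayed under the 2-fold threshold at each step. KMT2C, which methylates lysine 4 of histone H3 at enhancers, had 11.2, 11.95 and 11.9 FPKM at 6 mm, F5 and F1, and KMT2A, its relative of the MLL group, had 6.33, 5.94 and 3.82 FPKM. SETD2, which trimethylates lysine 36 of histone H3 behind elongating polymerase, had 18.0, 20.4 and 12.2 FPKM. SETD7, a methyltransferase of histone H3 and of many other proteins, had 9.28, 11.9 and 13.5 FPKM and was the 1 enzyme of this class that was higher at F1 than at F5 under all 5 scalings, by 1.13-fold (0.998 to 1.28), an interval that includes no difference. Of 20 listed subunits and further methyltransferases outside the name rule, 7 were 2-fold lower and 1 was higher in F1 against F5, where 22.9% and 5.09% of all genes were. The higher one was ASH2L, a core subunit of the complexes around KMT2 enzymes, with 44.5, 57.1 and 116 FPKM and a 2.03-fold higher level in F1 than in F5 (1.92 to 2.14), a call lost when libraries were scaled to the same FPKM sum.

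Histone demethylases had a median difference of -0.62 in F1 against F5, and 2 of 12 were 2-fold lower, where 22.9% of all genes were. KDM7A, an eraser of repressive methyl marks (chromosome 1, 56827922 to 56860120), had 16.8, 15.6 and 4.95 FPKM at 6 mm, F5 and F1, and was 3.14-fold lower in F1 than in F5 (2.69 to 3.69). KDM5A, which removes methyl groups from lysine 4 of histone H3, had 34.1, 30.1 and 13.9 FPKM and was 2.16-fold lower (2.01 to 2.34). Both calls were lost under the median-ratio scaling, with the directions unchanged. KDM5B, its paralog and the most abundant of the class at 6 mm, had 62.4, 49.4 and 29.8 FPKM and differed by -1.04 in F1 against 6 mm. KDM1A, the LSD1 enzyme, had 44.8, 41.2 and 33.8 FPKM. KDM2B, a demethylase that binds unmethylated CpG islands and carries a Polycomb complex there (chromosome 15, 5469305 to 5570414), went the other way, with 22.6, 22.2 and 37.0 FPKM and 1.67-fold higher in F1 than in F5 (1.57 to 1.78). This was under the 2-fold threshold, and the direction held under all 5 scalings.

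KAT2B and HDAC7 were the 2 chromatin genes counted as higher in F1 than in F5, and one adds acetyl groups where the other belongs to a family that removes them. KAT2B, the PCAF acetyltransferase (chromosome 2, 36428842 to 36470733), had 3.57, 2.89 and 7.68 FPKM at 6 mm, F5 and F1, from 216, 166 and 439 reads, and was 2.65-fold higher in F1 than in F5 (2.22 to 3.19). Its close paralog KAT2A, the GCN5 enzyme, had 51.9, 48.4 and 33.1 FPKM. KAT2A thus remained the more abundant of the pair in all 3 libraries. KAT5, the catalytic subunit of the TIP60 complex, had 17.6, 23.4 and 14.2 FPKM, on a gene model that starts at base 21 of an unplaced scaffold and may be partial.

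HDAC7, a class IIa deacetylase that works with corepressors (on a linkage group with no chromosome number, 378550 to 397362), had 4.13, 3.94 and 10.1 FPKM at 6 mm, F5 and F1, from 229, 207 and 530 reads. It was 2.57-fold higher in F1 than in F5 (2.18 to 3.03). HDAC4, another class IIa enzyme, had 9.78, 11.7 and 7.29 FPKM. HDAC9 had only 14, 4 and 10 reads. The class I enzymes HDAC1, HDAC2 and HDAC3, the catalytic partners of the SIN3, NuRD and NCOR complexes, had 33.2, 29.2 and 21.5 FPKM, 62.5, 58.5 and 38.0 FPKM, and 42.5, 38.2 and 21.9 FPKM. They and HDAC8, with 44.4, 35.5 and 23.5 FPKM, were all lowest at F1 as deposited and all within 2-fold at each step. Under median-ratio scaling HDAC3 alone of these 4 was lowest at F1.

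Of 6 sirtuins, the NAD-dependent deacylases, 1 was 2-fold lower in F1 than in F5, where 22.9% of all genes were. It was SIRT3, a mitochondrial deacetylase rather than a chromatin enzyme in the main (chromosome 5, 1625769 to 1629803), with 16.8, 17.8 and 5.53 FPKM at 6 mm, F5 and F1 and a 3.21-fold lower level in F1 than in F5 (2.52 to 4.12). SIRT5, also mitochondrial and the most abundant sirtuin, had 68.6, 67.4 and 59.8 FPKM. SIRT1, a nuclear deacetylase, had 3.62, 2.76 and 3.03 FPKM, and SIRT2 and SIRT6 had 41.3, 46.0 and 39.4 FPKM and 46.6, 49.1 and 32.3 FPKM. The SIRT2 model also starts at base 21 of an unplaced scaffold and may be partial. SIRT3 was the sirtuin with the largest difference at the step to F1, and the next, SIRT6, differed by -0.59.

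The SWI/SNF class held the most abundant chromatin gene at F1. SMARCA2, the BRM ATPase (chromosome Z, 26195620 to 26294557), had 118, 128 and 211 FPKM at 6 mm, F5 and F1, from 8553, 8789 and 14478 reads. It was 1.65-fold higher in F1 than in F5 (1.61 to 1.70), under the 2-fold threshold and higher under all 5 scalings, and at F1 its level lay at the 98.4th percentile of all genes. SMARCA4, the alternative ATPase BRG1, had 22.4, 28.5 and 22.7 FPKM, on a gene model that starts at base 21 of an unplaced scaffold and may be partial. SMARCA5, an ATPase of the ISWI family, had 15.3, 12.4 and 10.3 FPKM.

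SMARCC1, a scaffold subunit of the complex (chromosome 2, 771101 to 833143), was the 1 chromatin gene 2-fold higher in F5 than in 6 mm. It had 50.3, 117 and 92.6 FPKM at 6 mm, F5 and F1, and was 2.33-fold higher in F5 than in 6 mm (2.23 to 2.43), a call that held under all 5 scalings. Its level at F1 was also above that at 6 mm. SMARCE1, another subunit common to these complexes, had 35.0, 29.0 and 19.2 FPKM.

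Subunits that take each other's place in the complex differed among themselves. SMARCD3 (chromosome 2, 29878 to 90506), a subunit known from heart and muscle in mice, had 22.9, 15.1 and 4.84 FPKM at 6 mm, F5 and F1, and was 3.13-fold lower in F1 than in F5 (2.60 to 3.79). SMARCD1 and SMARCD2 had 37.6, 39.9 and 24.97 FPKM and 16.8, 15.0 and 9.47 FPKM. ARID1A and ARID1B, which occupy 1 place in the complex, had 19.1, 25.7 and 15.2 FPKM and 27.5, 17.4 and 10.2 FPKM, so that ARID1B was the higher at 6 mm and ARID1A at F5 and F1. SMARCAD1, a remodeller outside the SWI/SNF complex with a role in DNA repair, had 6.24, 5.79 and 1.62 FPKM and was 3.56-fold lower in F1 than in F5 (2.74 to 4.68).

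Several of the ARID proteins outside the complex bind AT-rich DNA. Of those outside it, 3 were 2-fold lower in F1 than in F5, where 22.9% of all genes were. ARID3B had 44.8, 22.5 and 10.7 FPKM at 6 mm, F5 and F1 and was nearly 2-fold lower at both steps, with differences of -0.96 and -1.01. ARID3A had 10.0, 7.06 and 2.46 FPKM, with 2.87-fold lower in F1 than in F5 (2.13 to 3.92). ARID5A, which in mice also binds and stabilises messenger RNAs, had 13.6, 15.9 and 2.19 FPKM, but these rest on 105, 117 and 16 reads over a short gene model on an unplaced scaffold. Its 7.29-fold lower level in F1 than in F5 had an interval of 4.30 to 13.2. In F1 against F5 the 2-fold call held under all 5 scalings for ARID5A, and under 2 of the 5 for ARID3A and for ARID3B. In F1 against 6 mm, ARID3A, ARID3B and ARID5A were 2-fold lower under all 5 scalings, where 18.8% of all genes were.

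CHD remodellers had a median difference of -0.82 in F1 against F5, with 1 of 7 lower past the threshold, where 22.9% of all genes were. CHD2 (chromosome 10, 14112774 to 14149142) had 14.6, 13.9 and 4.23 FPKM at 6 mm, F5 and F1 and was 3.28-fold lower in F1 than in F5 (2.85 to 3.80). CHD4, the ATPase of the NuRD complex, had 61.3, 68.1 and 74.6 FPKM, and CHD7, the gene of human CHARGE syndrome, had 6.81, 4.32 and 7.39 FPKM. CHD4 and CHD7 were higher in F1 than in F5 under all 5 scalings, by 1.10-fold (1.06 to 1.14) and 1.71-fold (1.54 to 1.91), and neither passed the threshold. Of 15 listed NuRD and SIN3 partners outside the name rule, 5 were 2-fold lower in F1 than in F5, where 22.9% of all genes were. MBD3, which joins NuRD, was among them with 59.3, 28.1 and 7.52 FPKM, while RCOR1, a partner of KDM1A, had 36.6, 60.8 and 67.0 FPKM.

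Bromodomain proteins, readers of acetylated lysine, held the most abundant chromatin gene at 6 mm and F5. This was BRD2, with 136, 183 and 133 FPKM at 6 mm, F5 and F1. It was highest at F5 as deposited and within 2-fold at each step, while under median-ratio scaling it was highest at F1. BRD8, a subunit of the TIP60 complex (chromosome 13, 9397204 to 9420637), was the 1 of 8 past the threshold in F1 against F5, where 22.9% of all genes were lower. It had 30.8, 29.9 and 10.0 FPKM and a 2.97-fold lower level in F1 than in F5 (2.69 to 3.29). BRD7 and BRD9, the bromodomain subunits of 2 SWI/SNF subtypes, had 27.0, 23.4 and 11.7 FPKM and 10.6, 8.71 and 4.76 FPKM.

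Chromobox proteins were lower with each stage as deposited, though under median-ratio scaling CBX1 was highest at F1 and CBX7 lowest at F5, and only CBX1 and CBX3 of the 5 tested lay above a difference of -0.5 in F5 against 6 mm. CBX8 and CBX2, Polycomb readers of methylated lysine 27 of histone H3, lie beside each other on chromosome 18, between 9899925 and 9915762. CBX8 had 5.94, 3.29 and 2.05 FPKM at 6 mm, F5 and F1, and CBX2 had 0.820, 0.537 and 0.120 FPKM from 29, 18 and 4 reads. Both neighbours were highest at 6 mm and lowest at F1 under all 5 scalings.

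CBX7, a further Polycomb reader on chromosome 1 (50609571 to 50619165), had 20.8, 10.4 and 7.01 FPKM at 6 mm, F5 and F1. In F5 against 6 mm it differed by -0.94, just under the threshold, with an FPKM ratio of 2.01-fold lower (1.70 to 2.37). In F1 against 6 mm, 4 of the 5 chromobox genes tested were 2-fold lower, where 32.8% of all genes were. CBX1 and CBX3, HP1 proteins that read methylated lysine 9 of histone H3, had 42.5, 39.2 and 28.3 FPKM and 54.5, 42.7 and 23.8 FPKM. CBX3, CBX7 and CBX8 were among those lower, and CBX1 was not. For CBX3, CBX7 and CBX8 the 2-fold call was met under 2 of the 5 scalings, and the direction held under all 5. The summed theca and smooth muscle markers stood at 26.0 FPKM in F5 and 709.5 FPKM in 6 mm, and their part in the chromobox levels was not tested.

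Of 15 further subunits of Polycomb complex 1 that were listed, 5 were 2-fold lower in F1 than in F5, where 22.9% of all genes were. In F5 against 6 mm 1 was lower, where 10.8% of all genes were. PHC1, a scaffold subunit, had 19.6, 34.0 and 7.46 FPKM at 6 mm, F5 and F1 and was 4.56-fold lower in F1 than in F5 (4.10 to 5.07). PCGF5, a subunit of variant complexes, had 17.9, 4.52 and 1.49 FPKM and was 3.97-fold lower in F5 than in 6 mm (2.97 to 5.38). As deposited, PHC1 thus had its highest level at F5, where the chromobox genes were already below their 6 mm level. Under median-ratio scaling CBX1 was not, with 42.7 at F5 against 42.5 at 6 mm.

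The PHF and ING proteins carry PHD fingers, which read the methylation state of histone H3. PHF21A, which reads unmethylated lysine 4 within the KDM1A complex (chromosome 5, 23071172 to 23192606), had 23.3, 38.7 and 12.8 FPKM at 6 mm, F5 and F1, and was 3.03-fold lower in F1 than in F5 (2.74 to 3.35). Its paralog PHF21B had 2.65, 0.813 and 0.0907 FPKM, from 31, 9 and 1 reads, and was 3.26-fold lower in F5 than in 6 mm (1.52 to 7.79). ING1 and ING4, readers of trimethylated lysine 4 in deacetylase and acetyltransferase complexes, had 20.8, 24.2 and 9.65 FPKM and 31.1, 36.2 and 15.5 FPKM. Both were lowest at F1, by 2.5-fold (2.01 to 3.14) and 2.33-fold (1.87 to 2.92) against F5, and in both the median-ratio scaling took the difference under the threshold. PHF5A, the most abundant of these at 81.3, 96.9 and 65.8 FPKM, is a subunit of the splicing factor SF3b and not a chromatin reader.

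**Figure D4:**
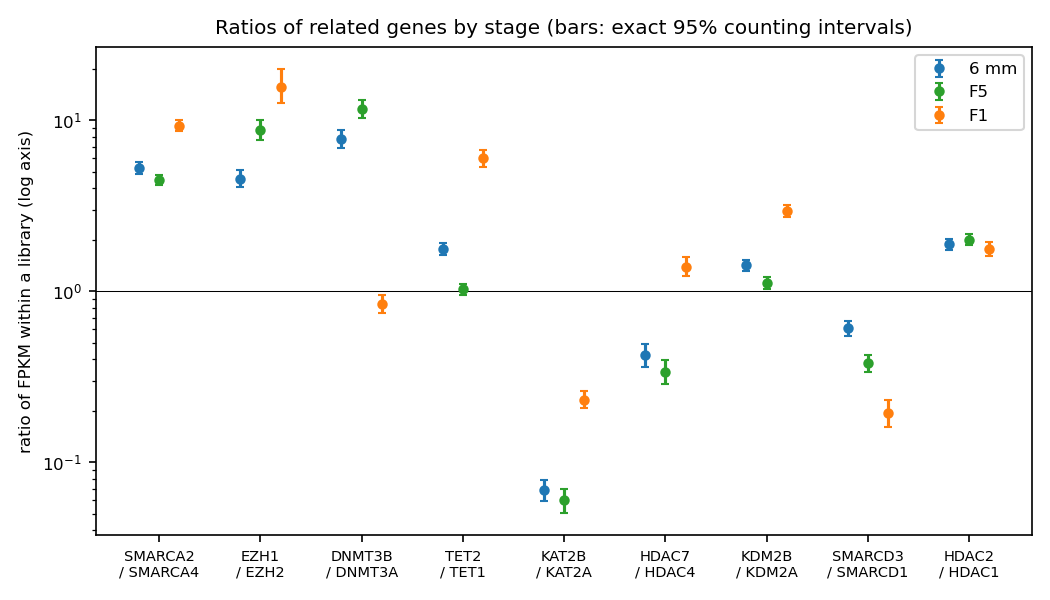
Ratio of FPKM (log axis) within pairs of chromatin genes with related functions in the 6 mm, F5 and F1 libraries, with exact 95% counting intervals. DNMT3B over DNMT3A stands at 0.841 in F1, against 11.7 in F5, and HDAC2 over HDAC1 lies between 1.77 and 2.0 at all stages.

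A ratio of 2 genes of 1 library does not depend on how libraries are scaled, so pairs of related genes, most of them in the ratio plot, carry the comparison without that choice. The pairs were chosen after their values were seen and show unequal change, not which gene moved. DNMT3B over DNMT3A was 7.79, 11.7 and 0.841 at 6 mm, F5 and F1. Counting intervals were 0.745 to 0.95 for F1 and 10.4 to 13.2 for F5, so the order of the pair was turned round at F1. TET2 over TET1 was 1.77, 1.03 and 5.99, with both enzymes at about the same level at F5.

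Among the acetylation enzymes, KAT2B over KAT2A was 0.0687, 0.0597 and 0.232 at 6 mm, F5 and F1, and HDAC7 over HDAC4 was 0.422, 0.337 and 1.39. HDAC7 was thus the lower of its pair at 6 mm and F5 and the higher at F1. HDAC2 over HDAC1 was 1.88, 2.0 and 1.77, the least varying pair of those compared. Among remodellers, SMARCA2 over SMARCA4 was 5.26, 4.48 and 9.32, CHD4 over CHD2 was 4.21, 4.90 and 17.6, and SMARCD3 over SMARCD1 was 0.608, 0.379 and 0.194. KDM2B over KDM2A, a pair of demethylases, was 1.42, 1.12 and 2.95. For EZH1 over EZH2 the ratio was 4.56, 8.78 and 15.8, higher at each later stage. Reads shared between paralogs of similar sequence can alter such ratios. Reads were counted with HTSeq 0.6.1, and the sources used here do not state how shared reads were treated.

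**Figure D5:**
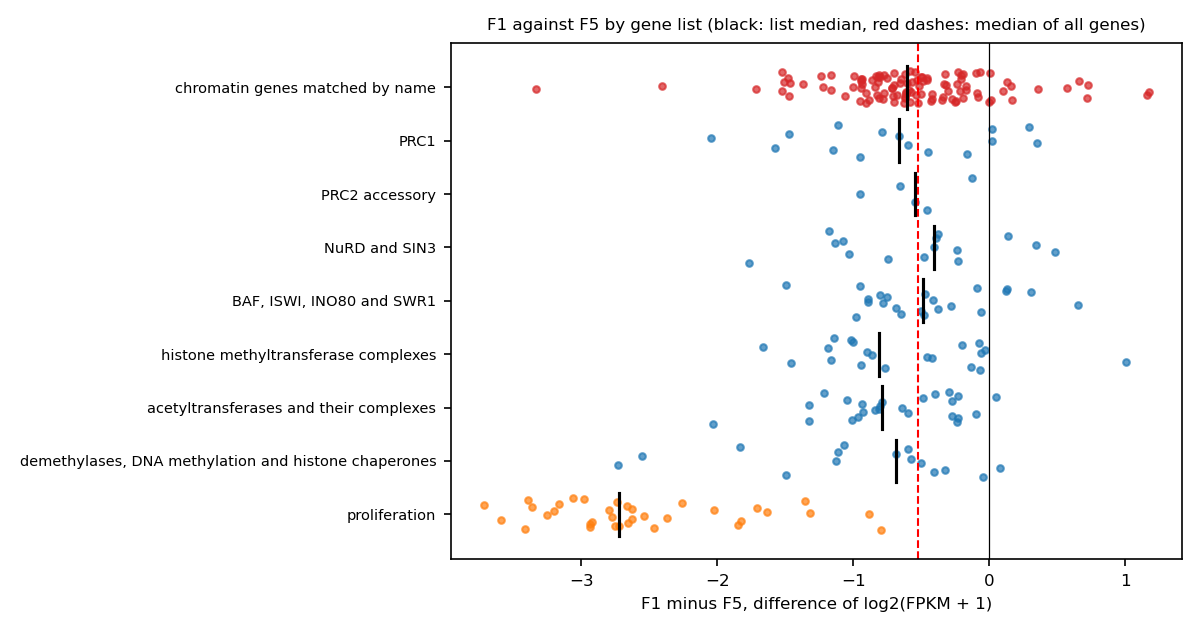
Difference of log2(FPKM + 1), F1 minus F5, with 1 point per gene, for the chromatin genes matched by name (red), 7 lists of further chromatin genes (blue) and proliferation genes (orange), with each list's median as a black bar and the median of all genes, -0.53, as a red dashed line. The chromatin genes have a median of -0.61, and the proliferation genes lie furthest to the left with a median of -2.73.

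The plot by gene list sets these genes beside 117 further chromatin genes that the name rule did not take, such as complex subunits, histone chaperones and arginine methyltransferases. In F5 against 6 mm, 1 of the 117 was 2-fold higher and 6 were lower, with a median of -0.11, where 7.64% of all genes were higher and 10.8% lower. In F1 against F5, 1 was higher and 31 were lower, with a median of -0.65, where 5.09% of all genes were higher and 22.9% lower. In F1 against 6 mm, 2 were higher and 46 were lower, with a median of -0.77, where 7.45% of all genes were higher and 32.8% lower. The shares of lower genes lay near those of all genes in the comparisons with F1. The 1 higher in F5 than in 6 mm was BAZ2A, the large subunit of the nucleolar remodelling complex, with 49.9, 220.2 and 77.4 FPKM at 6 mm, F5 and F1 and a 4.41-fold higher level in F5 than in 6 mm (4.17 to 4.67). It lies on an unplaced scaffold.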

How the data were processed

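Granulosa cell RNA of 3 follicle stages was sequenced, with 1 library per stage. Per the labels' protocols, poly-A RNA was selected and reverse transcription was primed with random hexamers. Reads were aligned with TopHat2 2.0.12 and counted with HTSeq 0.6.1, per the submitters' processing notes; the sources used here state neither the genome build nor whether counting used strand. The authors deposited FPKM values per gene, and 2 lines of each file that held no gene were left out.

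Whole reads behind the FPKM values were recovered from their steps, which gave the library totals. They are the smallest whole reads and length that fit all 3 libraries, so a count can be too low and its interval too wide. The length listed by the authors was a multiple of the recovered length for only 7.53% of genes with reads. Genes summed to 94.7%, 93.8% and 94.8% of these totals at 6 mm, F5 and F1. The recovered reads gave exact 95% intervals of levels and of ratios, and a count of 0 was set at a floor of 3 reads. Differences are of log2(FPKM + 1) between libraries, counted at 1 or more where 1 of the 2 libraries reached 1 FPKM. No test was run, since each stage has 1 library. The computation was tested on simulated data.

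Members and gene lists were chosen with earlier results of these data known. Named were the 12 members with the largest difference in each of the 3 comparisons, the 12 with the highest mean FPKM, core members of each family, and other members past the threshold. KMT2C and SMARCE1, and the named genes outside the name rule, were chosen after their values were seen. Gene names came from the files; of the 116, 115 matched a symbol in NCBI RefSeq's table for GRCg7b. Python 3.11.15, numpy 2.4.6, scipy 1.17.1 and pandas 2.3.3 were used. Some genes are not reported here.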

Additional observations from a re-analysis of the deposited data

How the results depend on the processing

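No paired analysis was possible because each stage has 1 library and no test was run. Over 10 alternatives, 84 of 140 counts stayed within 1.5 times the value reported. Of 1999 recomputed values of named genes, 1371 shifted by less than the distance from the middle to the end of their counting interval. The other 628 moved further. Changing the FPKM minimum or leaving out unplaced scaffolds cannot move a gene's own value, so part of the 1371 was fixed in advance. A change of sign was counted only for values past the 2-fold threshold, and 0 changed. The scalings multiplied a library by at most 1.67, so such a value could not change sign under them. Values under the threshold could: HDAC1 in F1 against F5 ranged from -0.53 to 0.17 over the 5 scalings. Counts of members that moved are given first for F5 against 6 mm, second for F1 against F5 and last for F1 against 6 mm. In parentheses stands the percent of all genes counted in the same way. A pseudocount of 0.5 gave 2 lower in the first (13.5%) and 2 higher in the last (8.22%). A pseudocount of 5 gave 0 lower (3.62%), then 0 higher (2.80%) and 10 lower (9.31%), then 0 higher (4.69%) and 15 lower (14.3%). An FPKM minimum of 5 gave 0 lower in the first (9.07%). Scaling to the same FPKM sum gave 4 lower in the first (13.7%) and 0 higher in the last (5.49%). Median-ratio scaling gave 0 lower (9.61%), then 6 higher (10.9%) and 3 lower (12.6%), then 10 higher (15.6%) and 8 lower (18.8%). TMM scaling gave 0 lower (9.25%), then 6 higher (9.90%) and 9 lower (13.5%), then 8 higher (14.9%) and 8 lower (19.1%). Upper-quartile scaling gave 0 lower (10.1%), then 6 higher (10.3%) and 5 lower (12.9%), then 8 higher (13.9%) and 11 lower (19.96%). Of 2 alternatives chosen after seeing the data, leaving out the pseudocount gave 3 lower (16.0%), then 26 lower (30.7%), then 2 higher (9.13%). The other, leaving out genes on unplaced scaffolds, gave 1 higher in the second (5.39%) and 0 higher in the last (7.48%). Members lower at the step to F1 alone numbered 16 as reported, 10 with a pseudocount of 5, 3 with median-ratio, 9 with TMM and 5 with upper-quartile scaling, and 26 without a pseudocount. For this pattern the share of all genes was counted only as reported, at 15.2%.

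For the 117 further chromatin genes, percents of all genes again stand in parentheses. A pseudocount of 5 gave 1 lower (3.62%), then 0 higher (2.80%) and 12 lower (9.31%), then 26 lower (14.3%). Scaling to the same sum gave 0 higher in the second comparison (4.05%) and 1 higher in the last (5.49%). Median-ratio scaling gave 3 higher (10.9%) and 10 lower (12.6%) in the second and 10 higher (15.6%) and 14 lower (18.8%) in the last. TMM scaling gave 2 higher (9.46%) and 3 lower (9.25%), then 3 higher (9.90%) and 10 lower (13.5%), then 7 higher (14.9%) and 14 lower (19.1%). Upper-quartile scaling gave 3 higher (10.3%) and 10 lower (12.9%) in the second and 5 higher (13.9%) and 15 lower (19.96%) in the last. Without unplaced scaffolds 0 were higher in the first (7.49%). With 1 library per stage, no alternative could leave out a replicate. The median of all genes in F1 against F5 was -0.53 as deposited, and the scalings assume that it, or a like measure, did not move, which was not tested. Low counts limit PHF21B, HDAC9, CBX2 and ARID5A.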

Other observations

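Some chromatin genes outside the name rule were lower at F1. NASP, a chaperone of histone H3 and linker histones, had 250.3, 135 and 22.1 FPKM at 6 mm, F5 and F1, and was 6.10-fold lower in F1 than in F5 (95% counting interval 5.63 to 6.61). CHAF1B, a subunit of the complex that loads histones at replication forks, had 7.43, 5.85 and 0.920 FPKM and was 6.36-fold lower (4.42 to 9.42). BRPF3, a scaffold of acetyltransferase complexes, had 40.5, 27.8 and 6.06 FPKM and was 4.60-fold lower (4.06 to 5.22). Of the 15 genes of the list with demethylases, DNA methylation factors and chaperones, 7 were 2-fold lower in F1 than in F5, and of the 25 acetyltransferase genes 6 were, where 22.9% of all genes were.

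ATRX, a remodeller that deposits histone H3.3 with its partner DAXX, had 10.7, 4.39 and 7.45 FPKM and was 2.44-fold lower in F5 than in 6 mm (2.09 to 2.85). SUV39H2, which methylates lysine 9 of histone H3, had 7.86, 6.05 and 1.22 FPKM, and NSD1, which methylates lysine 36, had 42.6, 37.4 and 13.0 FPKM. Both were lowest at F1. All genes named here were chosen after their values were seen.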
